A study of Ovis aries with 15 samples.

Results

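The 10 genes of the Toll-like receptor family, TLR1 to TLR10, were followed through the ovine mammary gland in late pregnancy and in lactation. They were found by symbol, and all 10 are among the 24691 features deposited for the series. In the comparison of the states over all libraries, TLR9 and TLR10 had too few reads to be tested, and the other 8 were tested along with every other gene that passed the filter on low counts. In brief, TLR1, TLR3, TLR5 and TLR8 were lower in lactation, and TLR2, TLR4 and TLR6 were higher relative to the median gene.

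Mammary tissue came from needle biopsies of 2-year-old Romney ewes in their first breeding cycle, taken at about day 135 of gestation (late pregnancy) and again at about day 15 post partum (lactation). RNA of several ewes was pooled before sequencing, which gave 9 late pregnancy libraries of 3 ewes each and 6 lactation libraries. The study's methods give 3 ewes for a lactation pool and the submitters' design text gives 2. All ewes were kept alike, and the pools fall into 3 groups by the pasture allowance of their own dams in early gestation, which was ad libitum (HM), maintenance (MM) or sub-maintenance (LM), with maintenance feeding of all these dams from mid gestation on. Each group had 3 late pregnancy pools and 2 lactation pools. The labels do not say which lactation pools hold ewes that were also in a given late pregnancy pool. The main test therefore treats all pools as independent, although ewes were sampled in both states, and its p-values rest on the spread between pools.

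Toll-like receptors are membrane proteins of innate immunity that recognise conserved molecules of microbes. Most signal through the adaptor MYD88 to NF-kappaB, and TLR3 and internalised TLR4 signal through TICAM1 (TRIF) to interferon regulatory factors. In the mammary gland they are found on epithelial cells, macrophages and other leukocytes, and are best known from work on the recognition of mastitis bacteria. In a bulk sample, fewer cells of a type and less RNA per cell cannot be told apart.

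Each library held 7597938 to 25679416 reads on genes. Of the reads on exons, 7 milk protein genes took 13.7 to 23.4% in late pregnancy and 71.3 to 75.8% in lactation, so that all other genes shared a smaller part of a lactation library. The 10 luminal epithelial markers, chosen to check the tissue label, were all tested and therefore all detected. The receptor family itself had 777 to 2424 reads per late pregnancy library and 437 to 949 per lactation library. CPM here means reads on exons per 1000000 reads of a library size scaled by the trimmed mean of M values (TMM), a method that centres the ratios of most genes. Where an SD follows a mean, it is over the 9 or the 6 libraries of that state.

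Coordinates are those of the deposited table, for which the submitters' processing notes name the sheep build Oar_v3.1. TLR10, TLR1 and TLR6 lie side by side on chromosome 6, at 57991532 to 57994011, 58008128 to 58010425 and 58034772 to 58037214. The gaps are 14117 bases between TLR10 and TLR1 and 24347 bases between TLR1 and TLR6. TLR7 (10358365 to 10361543) and TLR8 (10397405 to 10400506) are neighbours on chromosome X, 35862 bases apart with no other feature between them. TLR2 is on chromosome 17 (3837859 to 3840213), TLR3 on chromosome 26 (14909278 to 14919498), TLR4 on chromosome 2 (5857895 to 5868004), TLR5 on chromosome 12 (24702436 to 24705012) and TLR9 on chromosome 19 (48642130 to 48646669). The deposited annotation gives 7 of the 10 a single exon, while TLR3 has 5 exons and TLR4 and TLR9 have 3 each. Of the reads of TLR1, 72.8% were uniquely placed, and of those of TLR6, 74.2%, so these neighbours share reads with a similar sequence. The other 8 receptors had 100% uniquely placed reads.

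Between the states, 7 of the 8 tested receptors were called at an adjusted p under 0.05 by edgeR's quasi-likelihood test with Benjamini-Hochberg adjustment, where 68.4% of all 13345 genes tested were called. Lower in lactation were 4 (35.2% of all genes tested), each by more than 2-fold (13.0% of all genes). Higher were 3 (33.1% of all genes), none by more than 2-fold (9.13% of all genes). The median log2 change of the 8 was -0.33, against -0.03 for all genes tested. There was no overlap between the states for 1 lower receptor, TLR3 (20.0% of all genes), and for 2 higher ones, TLR2 and TLR4 (20.2% of all genes).

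**Figure D1:**
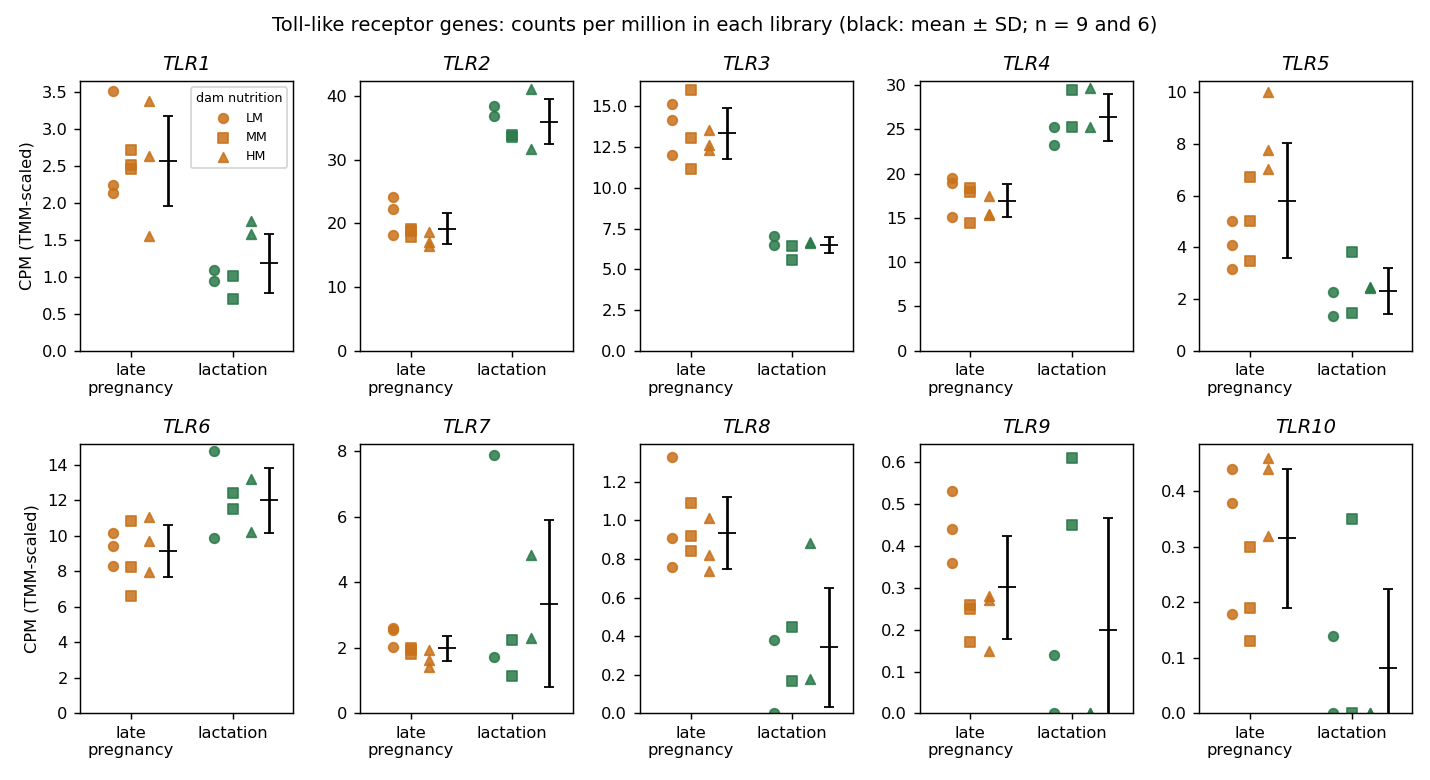
CPM (TMM-scaled, linear axis from 0, a separate scale for each gene) of the 10 Toll-like receptor genes in each of the 9 late pregnancy (orange) and 6 lactation (green) libraries, with dam nutrition group as symbol and mean ± SD in black. TLR3 separates the states downwards, TLR2 and TLR4 separate them upwards on this scale but are lower in lactation when scaled by library size alone (log2 -1.02 and -1.28), and the TLR7 mean in lactation is carried by 2 libraries at 4.84 and 7.87 CPM.

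TLR2 recognises bacterial lipoproteins and lipoteichoic acid, in pairs with TLR1 or TLR6. Its level was 16.4 to 24.1 CPM in late pregnancy (median 18.7) and 31.6 to 41.1 CPM in lactation (median 35.4). All 6 lactation libraries lay above all 9 of late pregnancy. The log2 change was 0.89 ± 0.08 (SE), or 1.85-fold (adjusted p = 1.1e-08), and -1.02 by library size alone, where the median gene was at -1.94. TLR6, the partner of TLR2 for diacylated lipopeptides, had 6.59 to 11.1 CPM in late pregnancy (median 9.43) and 9.90 to 14.8 CPM in lactation (median 11.9). These ranges overlap, and the change was small, at log2 0.40 ± 0.12 (SE, adjusted p = 0.0054), or -1.51 by library size alone. The call for TLR6 was lost with upper quartile scaling (log2 0.25, adjusted p = 0.068) and within the libraries whose column name gives lane 7 (log2 0.39, adjusted p = 0.091).

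TLR1, the partner of TLR2 for triacylated lipopeptides, went the other way from TLR6, its neighbour on the chromosome. Late pregnancy libraries had 1.55 to 3.51 CPM (median 2.51) and lactation libraries 0.696 to 1.76 CPM (median 1.05). Only the late pregnancy HM pool 3, at 1.55 CPM, fell inside the range of lactation. TLR1 fell by 1.21 on the log2 scale (SE 0.23, adjusted p = 1.3e-04), a 2.31-fold difference on 5 to 9 reads per lactation library. It passed the filter on low counts through its late pregnancy reads. On uniquely placed reads alone the log2 change was -1.18 for TLR1 and 0.44 for TLR6, close to the values on all reads.

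TLR4, the receptor for lipopolysaccharide of Gram-negative bacteria, was at 14.4 to 19.5 CPM in late pregnancy (median 17.5) and 23.2 to 29.7 CPM in lactation (median 25.3). As for TLR2, every lactation library lay above every late pregnancy library. The log2 change was 0.63 ± 0.08 (SE), or 1.55-fold (adjusted p = 9.3e-07), and -1.28 by library size alone. TLR5, the receptor for bacterial flagellin, ranged from 3.18 to 10.0 CPM in late pregnancy (median 5.03) and from 1.36 to 3.83 CPM in lactation (median 2.35). A single lactation library, MM pool 1 at 3.83 CPM, reached into the range of late pregnancy. TLR5 fell by 1.27 on the log2 scale (SE 0.3, adjusted p = 9.2e-04), with 10 to 44 reads per lactation library, and it had a wide spread among late pregnancy pools.

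Of the receptors that reside in endosomes and recognise nucleic acids, TLR3, which binds double-stranded RNA, was the most expressed. It had 11.2 to 16.0 CPM in late pregnancy (median 13.0) and 5.57 to 7.05 CPM in lactation (median 6.53). No library of lactation reached the lowest of late pregnancy. TLR3 fell by 1.06 on the log2 scale (SE 0.1, adjusted p = 9.2e-09), a 2.08-fold difference. TLR8, which binds single-stranded RNA, had 0.739 to 1.33 CPM in late pregnancy (median 0.912) and 0 to 0.879 CPM in lactation (median 0.278). Only lactation HM pool 1 overlapped late pregnancy. TLR8 fell by 1.61 on the log2 scale (SE 0.37, adjusted p = 7.7e-04), on only 0 to 4 reads per lactation library. It passed the filter on low counts through its late pregnancy reads, the state where it was higher.

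TLR7, the neighbour of TLR8 and also a receptor for single-stranded RNA, was not called. It lay at 1.43 to 2.60 CPM in late pregnancy (median 1.93) and at 1.13 to 7.87 CPM in lactation (median 2.27). The highest values were in lactation LM pool 1 (7.87 CPM) and HM pool 1 (4.84 CPM), and the other 4 lactation libraries, at 1.13 to 2.29 CPM, were within the range of late pregnancy or below it. The log2 change was 0.70 ± 0.31 (SE, adjusted p = 0.056), and -1.21 by library size alone. Without lactation LM pool 1 it was 0.17 (adjusted p = 0.57), and without HM pool 1 it was 0.58 (adjusted p = 0.13). TLR7 passed the threshold in 6 of the 15 fits that left out 1 library, namely those without late pregnancy LM pool 1 (adjusted p = 0.049) or LM pool 2 (0.046) and without lactation HM pool 2 (0.049), LM pool 2 (0.034), MM pool 1 (0.0078) or MM pool 2 (0.043). Lactation LM pool 1 also had the highest summed level of 6 leukocyte markers among lactation libraries, 177 CPM against 128 to 142 CPM in the others. Most of the 177 CPM came from LCP1, which had 63.2 to 117 CPM over the lactation libraries (median 71.0), so the sum reflects mainly this gene. The part of leukocytes in the TLR7 value was not tested.

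TLR9, the receptor for unmethylated CpG DNA, had 2 to 14 reads per late pregnancy library and 0 to 7 per lactation library, 3 of the latter at 0. TLR10, a family member without an established ligand, had 3 to 13 reads in each late pregnancy library and 0 to 4 in each lactation library, of which 4 were at 0. Neither passed the filter on low counts. Fitted without that filter, TLR10 had a log2 change of -1.44 (adjusted p = 0.057) and TLR9 of -0.29 (adjusted p = 0.66), where 27.3% of all genes were called lower and 23.7% higher, and at this depth no difference was detectable for either over all libraries. Within the libraries whose column name gives lane 8, a fit added after seeing the data, TLR10 had a log2 change of -2.63 (adjusted p = 0.038). In that fit 7764 of all 13720 genes tested were called. TLR10 passed the filter there through its late pregnancy reads, with 1, 0 and 0 reads in lactation LM pool 1, LM pool 2 and MM pool 2.

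Levels of different genes can be compared only per length of exon. In late pregnancy TLR2 was the highest, at 8.14 ± 1.06 CPM per kb of exon, followed by TLR4 (6.52 ± 0.726), TLR3 (4.63 ± 0.537), TLR6 (3.75 ± 0.606), TLR5 (2.26 ± 0.871), TLR1 (1.12 ± 0.263), TLR7 (0.624 ± 0.12), TLR8 (0.302 ± 0.0601), TLR10 (0.127 ± 0.0505) and TLR9 (0.1 ± 0.0416). The ranges of neighbours in this order overlapped except between TLR7 and TLR8 and between TLR8 and TLR10, although down to TLR8 the higher gene of each pair was the higher one in all 9 libraries. In lactation the order was TLR2 (15.3 ± 1.5 CPM per kb), TLR4 (10.1 ± 1.01), TLR6 (4.91 ± 0.760), TLR3 (2.24 ± 0.171), TLR7 (1.05 ± 0.802), TLR5 (0.893 ± 0.346), TLR1 (0.514 ± 0.176), TLR8 (0.111 ± 0.0993), TLR9 (0.0666 ± 0.0890) and TLR10 (0.0325 ± 0.0572). There the ranges of TLR2, TLR4, TLR6 and TLR3 were all apart, and TLR1 was above TLR8. Those of TLR3 and TLR7, of TLR7 and TLR5, of TLR5 and TLR1, and of the last 3 genes overlapped.

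Shares within the family do not depend on how libraries are scaled. TLR2 and TLR4 together made up 53.3 ± 3.70% of the summed CPM per kb of the 10 genes in late pregnancy (46.5 to 56.9%) and 72.2 ± 3.02% in lactation (67.1 to 75.9%). TLR3 went from 16.8 ± 0.854% to 6.37 ± 0.404%. TLR1, TLR3, TLR5 and TLR8 together went from 30.1 ± 2.87% to 10.7 ± 0.990%. None of these ranges overlapped between the states. TLR6, by contrast, held 13.5 ± 1.45% in late pregnancy and 13.9 ± 1.68% in lactation, with ranges of 11.5 to 16.3% and 11.8 to 16.5%.

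Ratios between receptors likewise need no scaling. The ratio of TLR2 to TLR3, per kb of exon, was 1.44 to 1.95 in late pregnancy and 5.80 to 7.63 in lactation, and that of TLR4 to TLR3 was 1.24 to 1.58 and 3.65 to 5.08. For the neighbours TLR6 and TLR1, the ratio was 2.27 to 4.84 in late pregnancy and 6.06 to 15.5 in lactation. In contrast, the ratio of TLR2 to TLR4, at 1.07 to 1.37 and 1.17 to 1.79, overlapped.

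**Figure D2:**
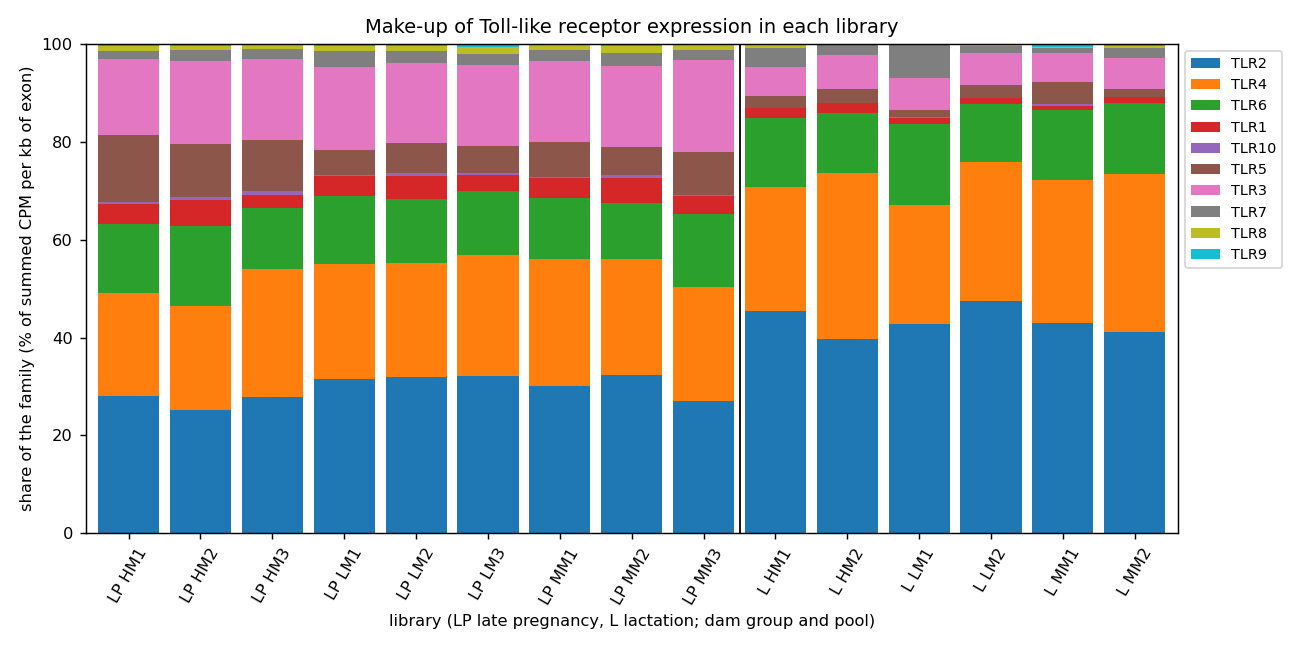
Share of each Toll-like receptor gene in the summed CPM per kb of exon of the family (stacked bars, percent) in each library, late pregnancy (LP) left of the line and lactation (L) right of it. TLR2 and TLR4 together take 46.5 to 56.9% of every late pregnancy bar and 67.1 to 75.9% of every lactation bar, and the TLR3 part shrinks from 15.5 to 18.7% to 5.83 to 6.86%.

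The scaling sets the sign of the higher receptors and not their place relative to other genes. When libraries were scaled by their size alone, the median of all genes was at log2 -1.94, all 8 tested receptors were called lower and none higher, where 95.2% of all genes were called lower and 2.64% higher. Relative to the median gene, the log2 change of TLR2 was 0.92 with either scaling, that of TLR4 0.66, that of TLR6 0.43 and that of TLR3 -1.03. Such agreement follows by construction, because a scaling factor shifts all genes of a library alike. By limma on log2(quantile-normalized RPKM + 1), which is no such shift, the values were 0.76, 0.54, 0.37 and -0.68. On the deposited RPKM, which divides by all reads on genes, the mean of each of the 10 receptors was lower in lactation, for example 11.8 ± 1.97 against 6.41 ± 0.772 RPKM for TLR2 and 6.72 ± 1.03 against 0.939 ± 0.0542 RPKM for TLR3.

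**Figure D3:**
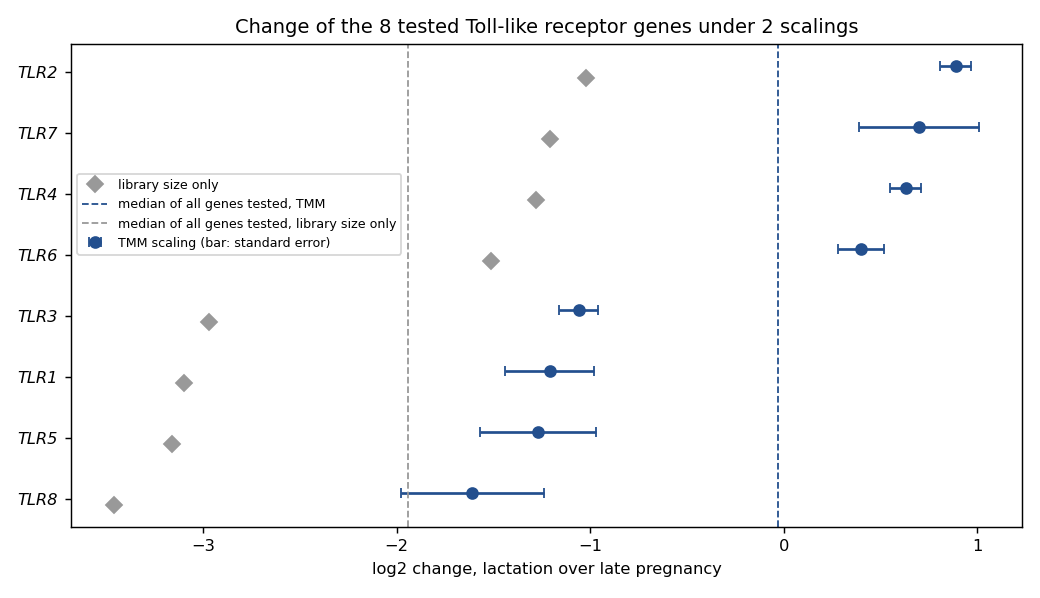
Log2 change, lactation over late pregnancy, of the 8 tested Toll-like receptor genes with TMM scaling (blue circles, bars are standard errors) and with library size alone (grey diamonds), with the median of all tested genes as a dashed line for each. TLR2, TLR4, TLR6 and TLR7 stand above the median gene and TLR1, TLR3, TLR5 and TLR8 below it in both, while the sign of the first 4 turns from positive to negative with library size alone.

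The partners of the receptors were taken from 6 lists of the pathway, of whose 81 symbols 67 were found and 58 tested. Of these, 16 were called lower (35.2% of all genes tested) and 22 higher (33.1% of all genes), with a median log2 change of 0.06. By library size alone 52 were called lower and 2 higher, where 95.2% of all genes were called lower and 2.64% higher.

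Among the co-receptors and chaperones, 3 of 9 tested were lower (35.2% of all genes tested) and 5 higher (33.1% of all genes). CD14, which hands lipopolysaccharide to TLR4, had 2.89 to 5.97 CPM in late pregnancy and 13.2 to 20.7 CPM in lactation (log2 2.13, adjusted p = 1.8e-11). LY96 (MD-2), the subunit of TLR4 that binds lipopolysaccharide, had 14.6 to 21.4 and 51.3 to 73.7 CPM (log2 1.76, adjusted p = 3.4e-13). LBP, the lipopolysaccharide binding protein, had 1.65 to 3.62 and 5.33 to 15.6 CPM (log2 1.86, adjusted p = 1.1e-07). CD14, LY96 and LBP were named because they were called with a log2 change above 1 and no overlap between the states. Their lack of overlap, and changes larger than that of TLR4, follow from that choice. By library size alone their log2 changes were 0.22 (adjusted p = 0.13), -0.14 and -0.02. CD180, a relative of TLR4 best known from B cells, was lower, at 1.30 to 2.18 and 0.190 to 1.10 CPM (log2 -1.54, adjusted p = 9.0e-05). It had at most 8 reads per lactation library and passed the filter on low counts through its late pregnancy reads. UNC93B1, which carries the nucleic acid receptors to endosomes, was not called (log2 -0.05, adjusted p = 0.56).

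Of the 4 adaptors tested, 1 was lower and 1 higher. For this and the next 2 lists, the shares over all genes tested were 35.2% called lower and 33.1% called higher. MYD88, used by all the receptors but TLR3, had 6.23 to 8.73 CPM in late pregnancy and 16.2 to 21.6 CPM in lactation (log2 1.39, adjusted p = 3.9e-11, or -0.52 by library size alone). TIRAP, which brings MYD88 to TLR2 and TLR4, was not called (log2 -0.46, adjusted p = 0.097), and neither was TICAM1, the adaptor of TLR3 (log2 0.20, adjusted p = 0.22). Among 15 kinases and ubiquitin ligases, 1 was lower and 7 were higher. None changed by more than 2-fold, where 13.0% of all genes were called lower and 9.13% higher by that much. Among 8 transcription factors, 1 was lower and 4 were higher. FOS, a subunit of AP-1, had 2.74 to 10.7 and 13.3 to 68.6 CPM (log2 2.55, adjusted p = 6.9e-07), with a wide spread in lactation. By library size alone its log2 change was 0.68, at the threshold (adjusted p = 0.05 after rounding).

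The 13 inhibitors tested divided evenly, with 4 lower (35.2% of all genes tested) and 4 higher (33.1% of all genes). ATF3, a transcriptional repressor that is induced by stress and by receptor signalling, had the largest log2 change of the pathway genes with TMM scaling, from 2.66 to 5.73 CPM in late pregnancy to 114 to 231 CPM in lactation (log2 5.50, adjusted p = 2.1e-16, or 3.60 by library size alone, where CXCL10, at -5.20, had a larger one). DUSP1, a phosphatase of MAP kinases, had 31.0 to 58.9 and 64.0 to 92.6 CPM (log2 1.00, adjusted p = 6.0e-07, or -0.91 by library size alone). IL1RL1, the receptor for interleukin 33, had 2.00 to 4.71 and 0.176 to 0.761 CPM (log2 -2.65, adjusted p = 1.8e-07). It had at most 6 reads per lactation library and passed the filter on low counts through its late pregnancy reads. TNFAIP8L2, an inhibitor known from macrophages and lymphocytes, had 3.02 to 4.66 and 1.05 to 1.69 CPM (log2 -1.48, adjusted p = 8.1e-08). It had at most 16 reads per lactation library.

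Target cytokines and effectors were mostly lower or too low to test. Of the 16 found, 9 were tested. Of these, 6 were lower (35.2% of all genes tested) and 1 was higher (33.1% of all genes), with a median log2 change of -0.88. CXCL10, an interferon-induced chemokine, had 6 to 14.2 CPM in late pregnancy and 0.542 to 1.69 CPM in lactation (log2 -3.29, adjusted p = 1.0e-09). It had at most 15 reads per lactation library. CCL5, a chemokine of T cells among others, had 15.0 to 22.2 and 2.20 to 6.35 CPM (log2 -2.12, adjusted p = 7.3e-10). CCL2 was not called (log2 -0.23, adjusted p = 0.32). IL6, IL8, IL10, IL12A, IL12B, CCL4 and CCL20 had too few reads to test.

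**Figure D4:**
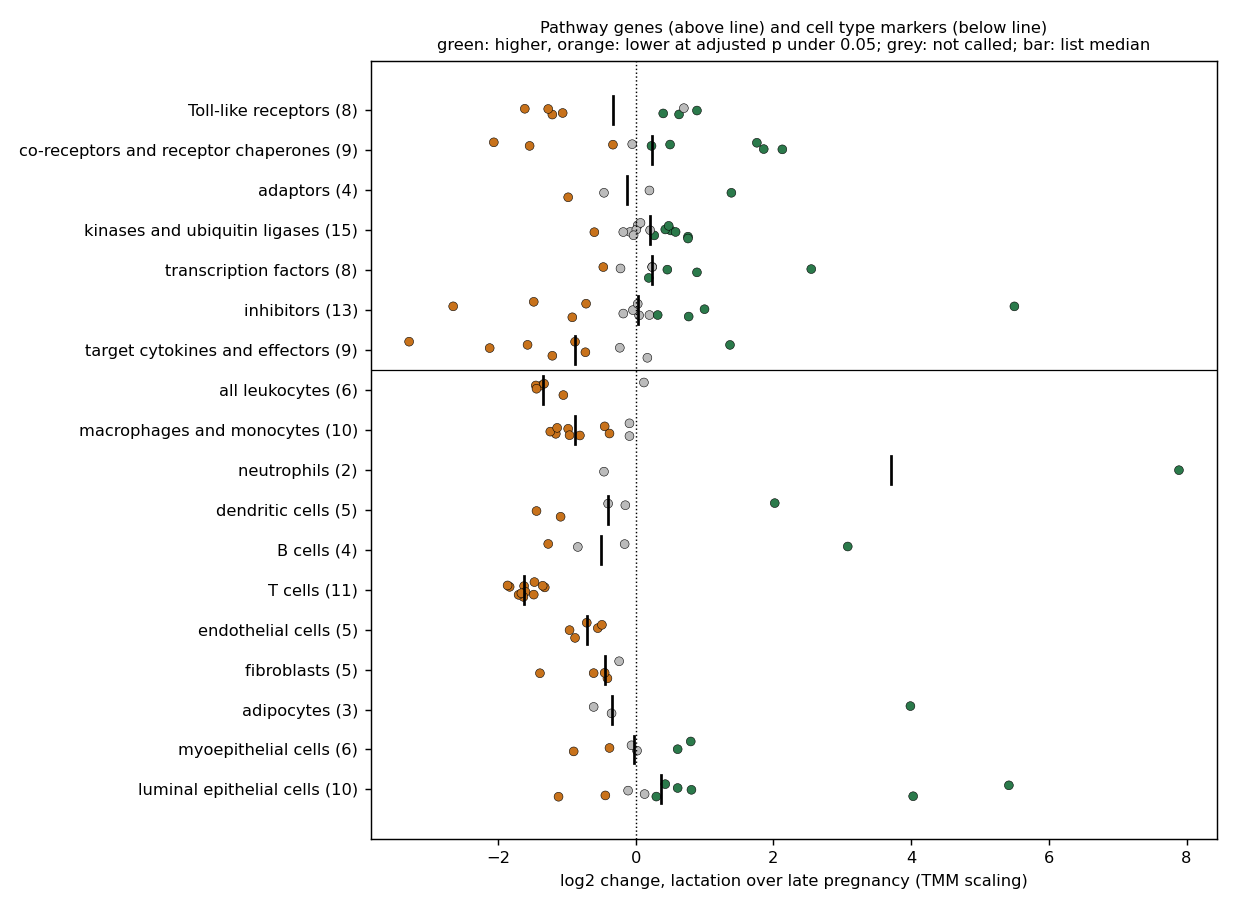
Log2 change, lactation over late pregnancy with TMM scaling, of each tested gene of the receptor family and its 6 pathway lists (above the line) and of 11 cell type marker lists (below it), with the number tested in brackets and the list median as a bar. The lists of the pathway have medians from -0.88 (target cytokines and effectors) to 0.24 (transcription factors), while leukocyte, macrophage and T cell markers have medians of -1.35, -0.88 and -1.62. With library size alone 52 of the 58 pathway genes were called lower, where 95.2% of all genes were.

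Markers of immune cells moved with the state as well. For all lists that follow, the shares over all genes tested were 35.2% called lower and 33.1% called higher. Of 6 markers of all leukocytes, 5 were lower in lactation and none higher, and their sum was 209 to 282 CPM in late pregnancy and 128 to 177 CPM in lactation. Of 10 tested macrophage markers, 8 were lower and none higher (179 to 232 against 91.4 to 121 CPM), and of 11 tested T cell markers all 11 were lower (58.6 to 93.4 against 19.1 to 29.2 CPM). All 5 endothelial markers tested were lower too (166 to 227 against 95.9 to 140 CPM). TLR2, TLR4 and TLR6 thus moved in the opposite direction to these lists on the same scale, and TLR1, TLR3, TLR5 and TLR8 in the same direction. Of the 7 neutrophil markers found, 5 had too few reads to test, CSF3R was not called and MPO was higher in lactation. MPO had at most 4 reads per late pregnancy library and passed the filter on low counts through its lactation reads. Of 4 tested B cell markers 1 was lower and 1, CD22, was higher, while the defining marker PAX5 had no read in any library. Of 5 tested dendritic cell markers 2 were lower and 1, BATF3, was higher. Of the remaining lists, 4 of 5 fibroblast markers were lower. Of 3 tested adipocyte markers, only CIDEA was higher (log2 3.99), and ADIPOQ (log2 -0.35) and CIDEC (log2 -0.61) were not called. Myoepithelial markers had 2 of 6 lower and 2 higher, and luminal epithelial markers had 2 of 10 lower and 6 higher. The part of any cell type in the change of a receptor was not tested.

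Dam nutrition was compared over the 9 late pregnancy libraries, 3 per group, to ask whether feeding of the dam in early gestation went with receptor levels in the daughters. No receptor was called by edgeR's quasi-likelihood test, with adjusted p-values of 0.77 to 1. Of all 13747 genes tested, 0% were called, 4.15% had an unadjusted p under 0.05 and 0.146% were called by DESeq2. At that unadjusted level were 2 of the 8 receptors tested, TLR5 and TLR2. TLR5 had 10.01, 7.77 and 7.02 CPM in the HM pools, 5.02, 3.47 and 6.73 CPM in the MM pools and 3.18, 5.03 and 4.11 CPM in the LM pools. The HM pools were thus above all others in late pregnancy, with a log2 difference of 1.02 between HM and LM (unadjusted p = 0.0026 over the 3 groups, adjusted p = 0.77 by edgeR and 0.069 by DESeq2). In lactation the HM pools, at 2.42 and 2.46 CPM, lay between the MM pools at 3.83 and 1.47 CPM, and the LM pools had 1.36 and 2.28 CPM.

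TLR2 had the opposite order in late pregnancy, with 21.5 ± 3.04 CPM in LM pools, 18.6 ± 0.730 in MM pools and 17.4 ± 1.16 in HM pools (n = 3 each), and a log2 difference of -0.31 between HM and LM (unadjusted p = 0.043 over the 3 groups by edgeR's F-test, adjusted p = 1). The LM and HM pools overlapped, since the lowest LM pool had 18.19 CPM and the highest HM pool 18.68 CPM. For the interaction of dam nutrition and state, 0% of the 14073 genes tested and none of the 10 receptors were called by edgeR. TLR9 had the lowest value (unadjusted p = 0.0024, adjusted p = 0.72) on at most 14 reads per library, where 6.49% of all genes had an unadjusted p under 0.05. DESeq2 called 0.201% of the 6979 genes to which it gave an adjusted p, and TLR9 was not among those 6979.

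**Figure D5:**
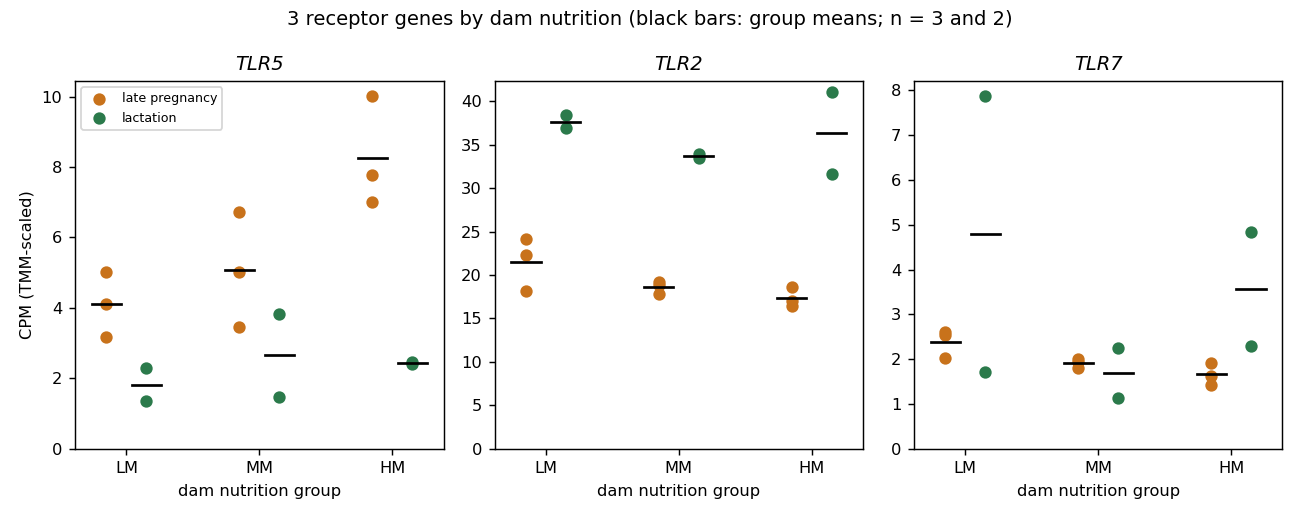
CPM (TMM-scaled, linear axis from 0) of TLR5, TLR2 and TLR7 in each library by dam nutrition group (LM, MM, HM), in late pregnancy (orange, n = 3 per group) and lactation (green, n = 2), with group means as black bars. The HM pools have the highest TLR5 in late pregnancy, at 7.02 to 10.01 CPM, and not in lactation, and the 2 high TLR7 values in lactation come from different dam groups.

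Reads on introns, counted as whole-gene reads less exon reads, exist only for the 3 receptors with more than 1 exon. TLR3 had 106 intron reads in all late pregnancy libraries together and 7 in all lactation libraries, TLR4 had 118 and 28, and TLR9 had 6 and 1. None of the 3 passed the filter on low counts when intron reads were scaled on their own, where 29.0% of all genes tested were called lower and 29.0% higher. With the library sizes and scaling of the exon reads, the intron reads of TLR3 were lower in lactation (log2 -1.75, adjusted p = 0.001), and those of TLR4 were not called (log2 0.06, adjusted p = 0.89). In this fit TLR3 passed the filter on low counts through its late pregnancy reads. The 29.0% shares belong to the fit scaled on intron reads and not to this one. Reads across exon junctions numbered 476 and 57 for TLR3 and 171 and 85 for TLR4, in late pregnancy and lactation.

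The genes whose variation within a state was most like that of TLR2, TLR4 and TLR3, the 3 tested receptors with the highest deposited RPKM averaged over all 15 libraries, were picked by Pearson's r of log2 CPM after removal of the state means, over 15 libraries and 12265 genes. For TLR2 these were LOC101118128 (r = 0.848), TCEB1 (0.824) and TTC18 (0.824). For TLR4 they were ZNF624 (0.812), ZNF484 (0.780) and LOC101114089 (0.779), and for TLR3 they were CDH1 (0.827), CYB5A (0.812) and ZNF782 (0.805). These values describe 15 libraries that share their scaling factors and are the highest of all genes compared.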

How the data were processed

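RNA of pooled mammary biopsies was prepared with a TruSeq RNA V2 kit, which does not mark strand, and sequenced as paired reads. Per the study's methods, the authors mapped the reads in CLC Genomics Workbench to a sheep genome that the processing notes call Oar_v3.1 and the methods give as a later version. The deposited counts are reads on exons and on whole genes, in all and uniquely placed, and reads across exon junctions. The deposited RPKM values are exon reads per kilobase and per 1000000 reads on genes, and a further set is the authors' quantile-normalized RPKM. RPKM recomputed from the counts differed by at most 3.5e-07 of its value. Columns of the authors' own comparison (fold changes, p-values and their correction) were not used.

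Exon reads (whole-gene reads where no transcript is annotated) were fitted over the whole table in edgeR 4.0.16 under R 4.3.3, with filterByExpr, TMM scaling and the quasi-likelihood F-test, with Benjamini-Hochberg adjustment across every gene in the fit. The scripts were tested on simulated data. Alternatives were DESeq2 1.42.0 on the counts, limma 3.58.1 on log2(quantile-normalized RPKM + 1) or + 0.1, other scalings and filters (among them at least 10 reads in every library), uniquely placed reads, covariates, a replicate block and leaving out each library. Lane as covariate and fits within lane 7 or 8 were added after seeing the data. The labels say that each library was run on 2 lanes and combined, so lane is only a name in the columns. Intron reads are whole-gene less exon reads. Total reads on genes per library were 7597938 to 19823166 in late pregnancy and 10352962 to 25679416 in lactation. Reads carry no molecular identifiers, and precision is taken from the spread between pools. No adjustment was made for overlapping genes.

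The receptors and all lists were chosen with earlier results of these data known. Genes named are all receptors, every pathway gene called with an absolute log2 change above 1 and no overlap between the states (up to 5 per list and direction), examples of pathway genes that were not called, and, for the 3 receptors with the highest RPKM, the 3 genes with the most similar variation. Marker genes outside this rule (MPO, CSF3R, CD22, PAX5, BATF3, LCP1, CIDEA, ADIPOQ and CIDEC), and the pathway genes with too few reads, were named after their values were seen.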

Additional observations from a re-analysis of the deposited data

How the results depend on the processing

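The number of receptors called lower (4) became 8 by library size alone, and 2 under a minimum of 10 reads per library, a filter that removes TLR1, TLR7 and TLR8 from the test. The number called higher (3) became 0 by library size alone, where 95.2% of all genes were called lower and 2.64% higher. The 38 pathway genes called became 24 under that minimum, 6 of them lower, again with fewer genes tested. Under the same minimum 7216 of all 10079 genes tested were called. By library size alone 52 were lower and 2 higher. On intron reads 0 receptors were called, and 1 (TLR3, on 7 intron reads in all lactation libraries together) with the scaling of exon reads or with no filter. By library size alone the sign turned for TLR2 (-1.02), TLR4 (-1.28), TLR6 (-1.51), TLR7 (-1.21), LBP (-0.02), LY96 (-0.14), MYD88 (-0.52), DUSP1 (-0.91) and TICAM1 (-1.70), as the median of all genes was then at -1.94. CCL2 was at 0.11 within lane 7, and the cause was not tested. Leaving out each library gave 7 to 8 receptors called, 4 lower and 3 to 4 higher, and 34 to 40 pathway genes, 13 to 17 lower and 21 to 24 higher. In those fits 8891 to 9049 genes were called among all 13205 to 13515 tested. TLR1, TLR2, TLR3, TLR4, TLR5 and TLR8 kept their direction and call in every alternative that tested them other than library size alone, and TLR6 in 27 of 29. Their log2 changes ranged from -1.35 to -0.38 for TLR1, 0.71 to 0.96 for TLR2, -1.21 to -0.73 for TLR3, 0.48 to 0.74 for TLR4, -1.63 to -0.64 for TLR5, 0.25 to 0.44 for TLR6 and -1.99 to -0.21 for TLR8. The smallest sizes of TLR1, TLR5 and TLR8 came from limma on log2(quantile-normalized RPKM + 1), a scale that by construction understates changes of genes with low values. TLR7 passed the threshold in 11 of 28, with log2 changes of 0.17 to 0.93 and adjusted p-values of 0.0078 to 0.57. Among these 11 were DESeq2 (0.029) and limma on log2(quantile-normalized RPKM + 1) (0.04). With a replicate block by pool number, or by dam group and pool number, 7 receptors were called, as without it, and 36 or 34 pathway genes. Of all 13345 genes tested, 8772 or 8464 were called with these blocks. Pools of the same dam group and number had residuals correlated at -0.045 to 0.12 over 6 pairs, which does not show that the numbers pair them, and whether they hold the same ewes is not known. In lactation, depth limits TLR1, TLR8, TLR9 and TLR10, which had at most 9, 4, 7 and 4 reads per library.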
